A study of Mus musculus with 24 samples.

Results

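The chemokine and chemokine receptor genes of the mouse heart were followed after a stroke of the brain. All genes whose platform symbol begins with Ccl, Cxcl, Cx3cl, Xcl, Ccr, Cxcr, Cx3cr or Xcr followed by a number were taken, which gave 52 of 24011 named genes. They comprised 19 CC ligands, 13 CXC ligands, 2 XC and CX3C ligands, 10 CC receptors, 6 CXC receptors and 2 XC and CX3C receptors. Hearts came from C57BL/6J mice aged 8 weeks that had undergone occlusion of the middle cerebral artery (MCAO), a surgical model of ischemic stroke, or a sham operation, and that were examined 24 h or 72 h later. Total RNA was hybridised to Affymetrix arrays, 6 arrays in each of the 4 groups. The labels do not state that the arrays came from separate animals, and p-values speak only for the spread among samples, which may be technical. The 8 cardiomyocyte markers averaged between 12.4 and 12.8 (deposited log2 value) on every array, so the tissue was heart by its own defining genes.

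Chemokines are small secreted proteins that guide leukocytes along gradients, and most are held on the heparan sulfate of endothelium and matrix. They act through G protein-coupled receptors named after the ligand class, CC, CXC, XC or CX3C. In the heart the homeostatic chemokine Cxcl12 is made by stromal and endothelial cells, whereas Ccl2 and its relatives draw monocytes and Cxcl1 and its relatives draw neutrophils after injury. The question put to the data was which of these signals differed in the heart after a lesion of the brain.

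At 24 h, Cxcl12 was lower on all 6 MCAO arrays than on any sham array, and the arrays were apart again at 72 h, where the difference missed the threshold. In the fit of all arrays the ligand genes Cxcl16, Cxcl17, Ccl5 and Ccl28 and the receptor gene Cxcr1 also fell at 24 h. The ligand genes Ccl4 and Ccl17 and the receptor gene Cxcr6 rose. These 9 genes were 17.3% of the 52, against 21.8 percent of all genes. In a fit of the 24 h arrays alone Cxcl12 and Ccl4 kept their calls and the others lost them. Ccl17 and Cxcr6 had low means, 3.46 and 3.56 (log2), against a median of 4.16 over all values. The neutrophil attractants Cxcl1, Cxcl2, Cxcl3 and Cxcl5 did not pass the test at either time in the fit of all arrays. Nor did the monocyte attractants Ccl2, Ccl7 and Ccl12. The neutrophil attractants had means of 3.81 or less. Ccl2 and Ccl7 passed as lower at 24 h without MCAO 24 h replicates 5 and 6, and Ccl7 and Ccl12 at 72 h with array weights. In the fit of all arrays none of the 52 genes changed by as much as 2-fold.

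Upstream sequences are shown for Cxcl12, the gene that differed most regularly, and for the ligand genes that hold an NF-kB type motif, the class of site known for inducible chemokines. They are from RefSeq (GRCm38.p6), which had windows for 38 of the 52 genes, and the 250 bases before each annotated gene start were searched on both strands. For Cxcl12 all 250 bases are printed, with matches to the GC box letters GGGCGG (or CCGCCC on the other strand) in capitals. There were 5 matches, the last 2 sharing a base, and 64.4% of the bases were G or C, against a median of 52.4% over all windows.
Cxcl12, chr6:117168285-117168534 (plus strand): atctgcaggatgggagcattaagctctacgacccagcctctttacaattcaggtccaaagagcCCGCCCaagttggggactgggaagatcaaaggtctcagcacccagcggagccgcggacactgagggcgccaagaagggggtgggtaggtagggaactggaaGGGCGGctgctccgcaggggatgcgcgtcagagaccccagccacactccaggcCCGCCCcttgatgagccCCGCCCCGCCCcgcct
For the other 5 genes the 60 bases around the NF-kB type motif are printed, with the matches in capitals. The letters searched were GGG, any 2 bases and TTTCC, which read GGAAA, any 2 bases and CCC on the other strand.
Cxcl1, chr5:90891131-90891190 (plus strand): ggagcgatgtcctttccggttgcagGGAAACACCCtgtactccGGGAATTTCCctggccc
Cxcl2, chr5:90903777-90903836 (plus strand): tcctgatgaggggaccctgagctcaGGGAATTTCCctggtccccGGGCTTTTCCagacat
Cxcl3, chr5:90786003-90786062 (plus strand): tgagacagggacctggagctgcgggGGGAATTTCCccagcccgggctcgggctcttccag
Ccl20, chr1:83116661-83116720 (plus strand): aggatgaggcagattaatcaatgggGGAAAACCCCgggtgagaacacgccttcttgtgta
Ccl9, chr11:83578637-83578696 (minus strand): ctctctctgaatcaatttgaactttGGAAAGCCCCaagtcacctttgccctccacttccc

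The NF-kB type motif was found in 6 of the 38 genes (15.8%), the 5 above and the receptor gene Ccr3, against 1.41% of 32851 upstream windows of the same length. At 24 h after MCAO, 0 of these 6 genes passed the test, where 21.8 percent of all genes did. The log2 changes were 0.00 for Cxcl1, 0.05 for Cxcl2, 0.03 for Cxcl3, -0.12 for Ccl20, -0.06 for Ccl9 and -0.08 for Ccr3. The GC box was found in 6 of the 38 genes (15.8%), against 32.7% of all windows. These were Cxcl12, Ccl28, Cxcr1, Cx3cl1, Cxcl2 and Cxcr4, of which the first 3 fell at 24 h, where 10.8 percent of all genes did. Ccl28 and Cxcr1 lost their calls in 17 and 16 of 24 fits that left out an array. Whether the GC box has a part in these decreases was not tested. The letters TATAAA were present in 12 genes against 12.4% of windows, the interferon response type letters GAAA, any 2 bases and GAAA in 3 genes (Ccl19, Cxcl10 and Cxcl14) against 2.98% of windows, and the glucocorticoid response type letters AGAACA, any 3 bases and TGTTCT in 0 genes and in 3 of all windows. Shares of the 38 genes count genes, which had 40 windows, whereas the shares set against them count windows. A match describes letters in a window and not a bound site.

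Arrays of MCAO 24 h stood apart from the rest. Replicates 5 and 6 of that group had the lowest correlation with their own group, 0.976 and 0.971, whereas the other 22 arrays were between 0.985 and 0.997. The median SD of the 52 genes within a group was 0.206 (log2) in MCAO 24 h, 0.135 in sham 24 h, 0.128 in sham 72 h and 0.105 in MCAO 72 h. Over all genes it was 0.218, 0.130, 0.114 and 0.105. Sham 24 h replicate 4 was the highest array of its group for 16 of the 52 genes, sham 72 h replicate 2 the highest for 15, and MCAO 24 h replicate 5 the lowest for 15. The heart is a mixture of cells, and fewer cells of a type and less RNA per cell cannot be told apart in these samples.

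The deposited values carry no detection limit. As a stand-in served the 95th percentile of the mean levels of 1365 odorant and vomeronasal receptor genes, whose products sense odours and pheromones, which was 3.96 (log2). Of the 52 genes, 20 had a mean over all arrays above it, against 56.3% of all genes. Those above included Cxcl12, Cxcl14, Cxcl16, Ccl6, Ccl9, Cx3cl1, Cx3cr1 and Cxcr4. Those below included Cxcl1, Cxcl2, Cxcl3, Cxcl5, Ccl3 and 9 of the 10 CC receptors.

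**Figure D1:**
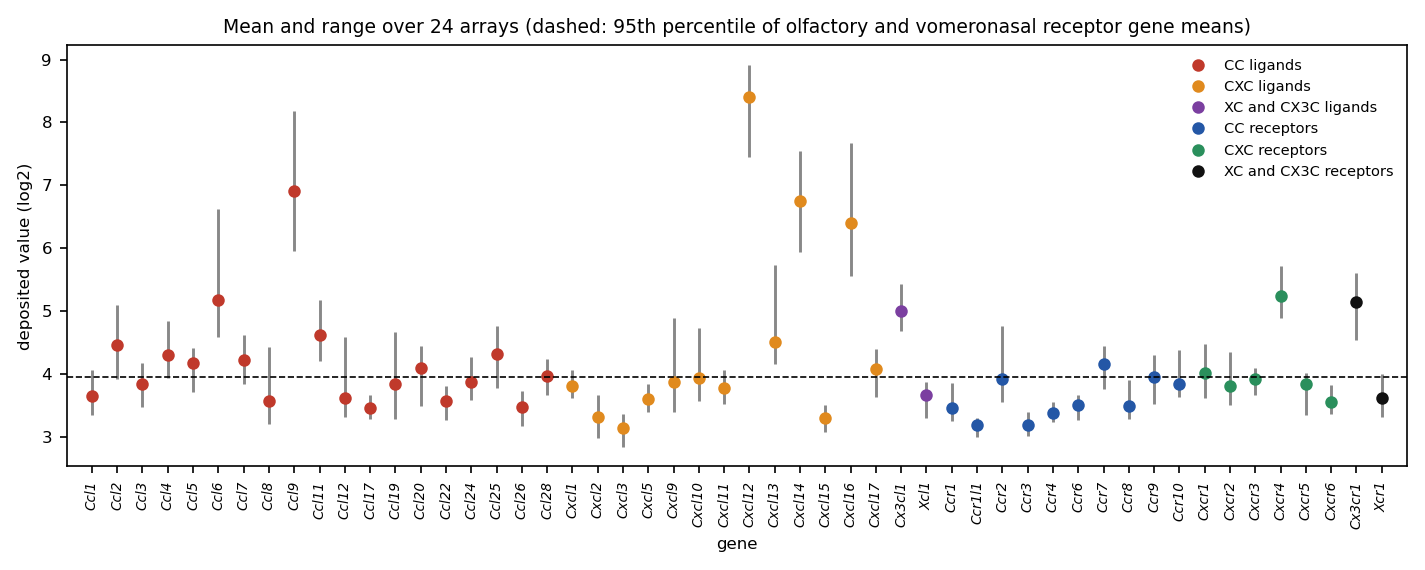
Mean (points) and lowest to highest value (grey lines) over 24 arrays for each of the 52 genes, on the deposited log2 scale, ordered by class and number and coloured by class. The dashed line is at 3.96, and 20 gene means lie above it.

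At 24 h after MCAO, 9 of the 52 genes passed (17.3%), 3 higher and 6 lower, at an adjusted p under 0.05 (limma, Benjamini-Hochberg over all genes). Over all genes 21.8 percent passed, so the share among chemokine genes was near the background. By direction, 11.1 percent of all genes were higher and 10.8 percent lower. At an unadjusted p under 0.05 there were 15 of the 52, against 34.7 percent. The median log2 change of the 52 genes was -0.05, with 18 above 0 and 34 below, against 0.01 over all genes. The calls lay mostly among genes above the odorant receptor level: 7 of those 20 passed (1 higher, 6 lower), where 28.0 percent of all genes above it did. Of the 32 genes below it, 2 passed, both higher, where 11.6 percent of the odorant and vomeronasal receptor genes themselves passed. By class, 4 of 19 CC ligands, 3 of 13 CXC ligands and 2 of 6 CXC receptors passed, and 0 of 2 XC and CX3C ligands, 0 of 10 CC receptors and 0 of 2 XC and CX3C receptors. In a fit of the 24 h arrays alone 3 of the 52 genes passed (Ccl4, Cxcl12 and Cxcl13), where 9.14 percent of all genes did, and without MCAO 24 h replicates 5 and 6 there were 13, where 24.4 percent of all genes passed. Leaving out MCAO 24 h replicate 6 alone brought Ccl2, Ccl7, Ccr3, Cx3cl1 and Cx3cr1 past the threshold at 24 h, replicate 5 alone Ccl2 and Cxcl13, replicate 1 Xcr1 and replicate 3 Cxcl14. Cx3cr1 and Xcr1 passed without sham 24 h replicate 3, Ccl12 without sham 72 h replicate 2 and Cxcl13 without MCAO 72 h replicate 5.

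At 72 h, 0 of the 52 genes passed in the limma fit of all arrays, where 2.35 percent of all genes did. At an unadjusted p under 0.05 there were 9 (17.3%), against 10.9 percent of all genes, and the median log2 change was -0.03 against 0.00. With array weights 5 genes passed at 72 h (Ccl7, Ccl12, Ccl17, Cx3cr1 and Cxcl12; 7.93 percent of all genes), and in a fit of the 72 h arrays alone 2 passed (Cx3cr1 and Cxcl12; 5.87 percent of all genes). The change had the same sign at both times for 27 of the 52 genes, 21 of them lower at both and 6 higher at both, where 58.3% of all genes kept their sign. Of the 9 genes called at 24 h, 5 kept it, against 70.7% of all genes called at 24 h.

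**Figure D2:**
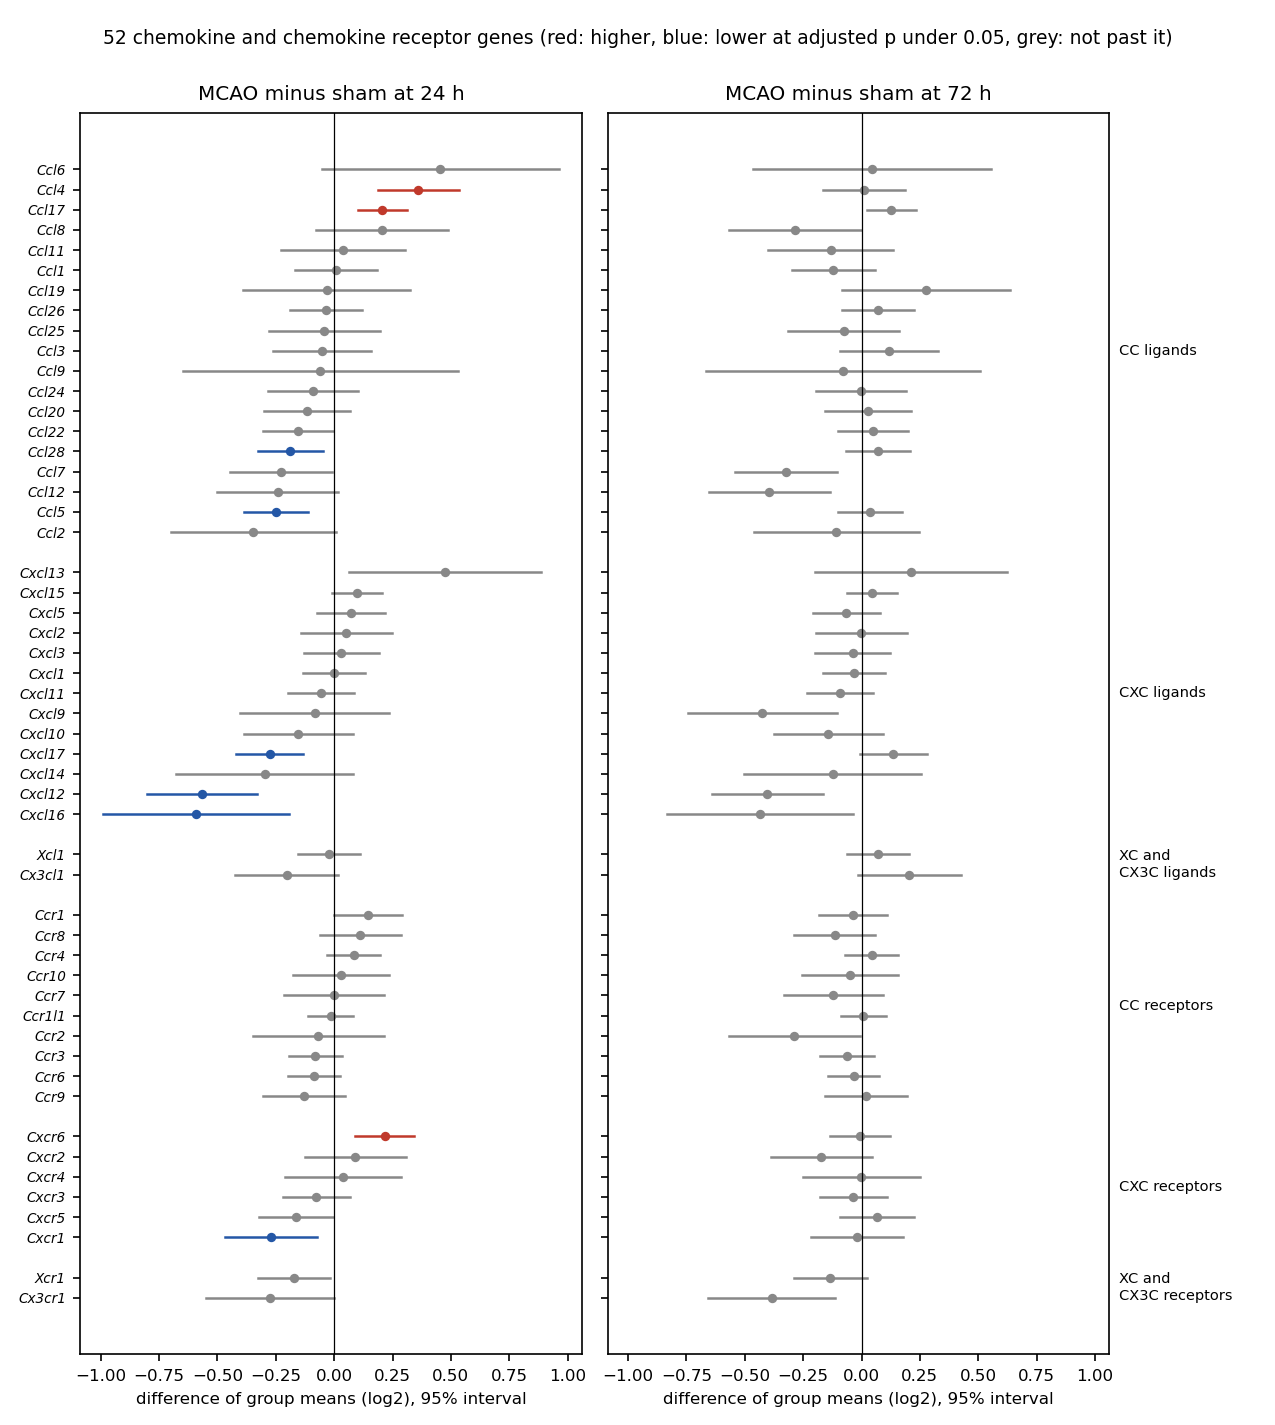
Difference of group means between MCAO and sham (points, log2) with its 95% interval (lines) for each of the 52 genes at 24 h (left) and 72 h (right), grouped by class. Red and blue mark the 3 genes that rose and the 6 that fell at 24 h, and 0 passed at 72 h.

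Among CXC ligands, Cxcl12 (Entrez Gene 20315), the ligand of Cxcr4 that retains progenitor cells and supports vessels, was clearest. At 24 h its log2 values ran from 8.40 to 8.89 in sham hearts, with a median of 8.56, and from 7.45 to 8.27 after MCAO, with a median of 8.10. At 72 h they ran from 8.51 to 8.92 with a median of 8.65 in sham hearts and from 7.98 to 8.39 with a median of 8.34 after MCAO. The groups did not overlap at either time, and in MCAO 24 h replicate 6 was the lowest, with the others at 8.05 or more.

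The decrease in Cxcl12 at 24 h was 1.48-fold (log2 change -0.57, SE 0.11, adjusted p = 0.00126, limma). It was the only one of the 52 genes with no overlap at 24 h, where 5.53 percent of all genes had none. Without replicates 5 and 6 it was -0.47 (SE 0.10, adjusted p = 0.00155). The call held in each of the 24 fits that left out an array and in each of 10 other settings. At 72 h Cxcl12 was 1.32-fold lower (log2 change -0.40, SE 0.11, unadjusted p = 0.00178), which missed the threshold with an adjusted p of 0.0641. It passed there in 6 of 34 other settings, with adjusted p-values between 0.00219 and 0.163 over all of them. The difference between the 24 h and 72 h effects was 0.16 (SE 0.16, adjusted p = 0.64), with an interval from -0.17 to 0.50.

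Markers of cells that make Cxcl12 were read beside it. The mean of 5 fibroblast markers had a group median of 7.96 in sham 24 h, 7.65 in MCAO 24 h, 7.95 in sham 72 h and 7.74 in MCAO 72 h (log2). Of these 5 genes Lum and Col1a1 fell at 24 h, by 1.31 and 0.83 on the log2 scale, and 0 passed at 72 h. Over all genes 10.8 percent fell at 24 h. At that time 2 of the 5 were above 0, up to 0.26, and the median log2 change was -0.07. At 72 h 2 were above 0, up to 0.47, and 3 below. Of 6 smooth muscle and pericyte markers 2 fell at 24 h, Acta2 and Tagln, and of 6 endothelial markers 2 rose (Tie1 and Pecam1) and 1 fell (Kdr, log2 change -0.88). Their part in the result for Cxcl12 was not tested. The receptor gene Cxcr4 differed by 0.04 at 24 h (SE 0.12, interval -0.21 to 0.29) and by 0.00 at 72 h (SE 0.12, interval -0.25 to 0.25). Ackr3, the scavenger receptor for Cxcl12, was named after its values were seen and differed by -0.19 (SE 0.11, adjusted p = 0.22) and 0.03 (SE 0.11).

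**Figure D3:**
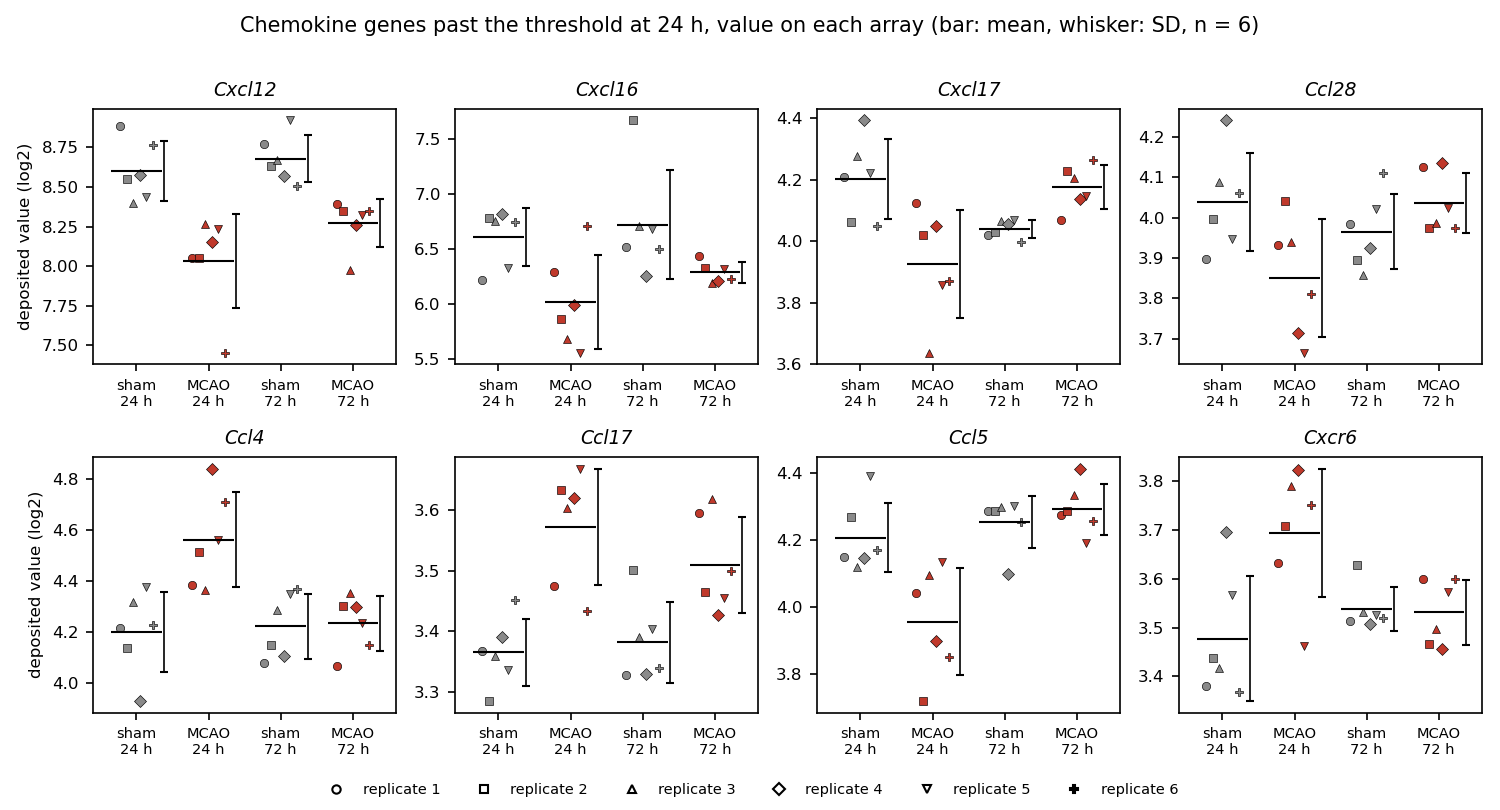
Deposited log2 value on each array for 8 of the 9 genes that passed at 24 h, in sham (grey) and MCAO (red) hearts, with the mean (bar) and SD (whisker) of 6 arrays and a marker shape per replicate number. Cxcl12 shows no overlap between sham and MCAO at either time, and in MCAO 24 h replicate 6 is the lowest at 7.45.

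Cxcl16 (Entrez Gene 66102) encodes a transmembrane chemokine that also acts as a scavenger receptor, and its receptor is Cxcr6. At 24 h it ran from 6.22 to 6.82 with a median of 6.75 in sham hearts and from 5.55 to 6.71 with a median of 5.93 after MCAO. MCAO replicates 6 and 1, at 6.71 and 6.29, lay within the sham range, and the other 4 were below it. Cxcl16 fell 1.51-fold (log2 change -0.59, SE 0.19, adjusted p = 0.0305). The call was lost in 7 of 24 fits without an array (MCAO 24 h replicate 2, 3 or 5 or sham 24 h replicate 2, 3, 4 or 6), with adjusted p-values up to 0.0717, with array weights and in the fit of the 24 h arrays alone (adjusted p = 0.0607). At 72 h the log2 change was -0.44 (SE 0.19, adjusted p = 0.366), and -0.25 without sham 72 h replicate 2, whose value of 7.67 was the highest of its group.

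Cxcr6 (Entrez Gene 80901), the receptor for Cxcl16 on T and NKT cells, went the other way at 24 h. Its log2 values had a median of 3.43 in sham hearts, from 3.37 to 3.69, and of 3.73 after MCAO, from 3.46 to 3.82. The ranges overlapped, and all values were below the odorant receptor level. Cxcr6 rose 1.16-fold (log2 change 0.22, SE 0.06, adjusted p = 0.0150), kept its call in all 24 fits without an array and lost it in the fit of the 24 h arrays alone (adjusted p = 0.113). At 72 h the difference was -0.01 (SE 0.06). The T cell list had 0 of 5 measured members past the threshold at 24 h, and the NK cell list 0 of 5, where 21.8 percent of all genes passed. Only 1 of the T cell markers and 2 of the NK cell markers had a mean above the odorant receptor level.

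Cxcl17 (Entrez Gene 232983), a chemokine of mucosal tissues, differed between the times. At 24 h sham hearts ran from 4.05 to 4.39 with a median of 4.21, and MCAO hearts from 3.64 to 4.12 with a median of 3.94. At 72 h sham hearts ran from 4.00 to 4.07 with a median of 4.04, and MCAO hearts from 4.07 to 4.26 with a median of 4.18. All 6 MCAO arrays were below the sham mean at 24 h, and all 6 were above the highest sham array at 72 h, though the nearest arrays both rounded to 4.07.

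Cxcl17 fell by 0.28 on the log2 scale at 24 h (SE 0.07, adjusted p = 0.00665; lost with array weights and in the fit of the 24 h arrays alone, adjusted p up to 0.0761) and differed by 0.14 at 72 h (SE 0.07, adjusted p = 0.513). The difference between these effects was 0.41 (SE 0.10, adjusted p = 0.0328, limma), and Cxcl17 was the only one of the 52 genes past that test, where 1.79 percent of all genes passed. Sham hearts were themselves lower at 72 h than at 24 h by 0.16 (SE 0.07, unadjusted p = 0.0273, adjusted p = 1). The call of the difference was lost in 10 of 24 fits without an array, with adjusted p-values up to 0.0603. It was also lost with array weights, with the filter on dim genes and with the replicate block.

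The interferon-inducible ligands Cxcl9, Cxcl10 and Cxcl11, which attract T cells through Cxcr3, passed at neither time. Cxcl10 and Cxcl11 were named after their values were seen and differed at 24 h by -0.15 and -0.06 and at 72 h by -0.14 and -0.09. Cxcl9 had medians of 3.93 and 3.89 in sham and MCAO hearts at 24 h and of 3.97 and 3.70 at 72 h. Its log2 change at 72 h was -0.42 (SE 0.15, unadjusted p = 0.0111, adjusted p = 0.192), and all 6 MCAO arrays were below the sham mean. Sham 72 h replicate 2 was at 4.89, and without it the change was -0.27 (adjusted p = 0.439). The same array was at 4.73 for Cxcl10 and at 4.76 for Ccr2, and the other sham 72 h arrays were at most 4.06 for Cxcl10. For Cxcr3 the log2 changes were -0.08 and -0.04 (SE 0.07 each).

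The neutrophil attractant genes were below the odorant receptor level on average. Cxcl1, Cxcl2 and Cxcl3, named after their values were seen, differed at 24 h by 0.00, 0.05 and 0.03 on the log2 scale and Cxcl5 by 0.07 (SE 0.07), and at 72 h Cxcl5 differed by -0.06. Their receptor gene Cxcr2 differed by 0.09 (SE 0.10) and -0.17 (SE 0.10). Cxcr1, a receptor of granulocytes, fell by 0.27 at 24 h (SE 0.10, adjusted p = 0.0447), from a sham median of 4.05 to 3.74. The ranges, 3.96 to 4.35 and 3.62 to 4.16, overlapped, and the call was lost in 16 of 24 fits without an array (adjusted p up to 0.114) and without replicates 5 and 6 (log2 change -0.19, adjusted p = 0.180). Of 9 neutrophil markers 1 rose at 24 h, Retnlg, by 0.64 (SE 0.13, adjusted p = 0.000926), where 11.1 percent of all genes rose. Its mean was 3.42 in sham 24 h and 4.06 in MCAO 24 h. Of the 9 markers 7 were above 0 at 24 h and 2 below, with a median log2 change of 0.15. A mean below the odorant receptor level was found for 7 of the 9.

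Cxcl13, the ligand that draws B cells through Cxcr5, was uneven. Sham 24 h arrays ran from 4.16 to 4.34 with a median of 4.28, and MCAO 24 h arrays from 4.18 to 5.05 with a median of 4.77. Of the MCAO arrays 5 were above every sham array and replicate 5 was near the lowest. The log2 change was 0.47 (SE 0.20, adjusted p = 0.0885). It was 0.63 without replicates 5 and 6 (SE 0.21, adjusted p = 0.0330).

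At 72 h a single array in each group was high for Cxcl13, sham replicate 6 at 5.10 and MCAO replicate 5 at 5.73, against at most 4.34 and 4.46 on the others. The log2 change there was 0.21 (SE 0.20, adjusted p = 0.909), -0.01 without that MCAO array and 0.35 without that sham array, and neither of these passed. These arrays also had the highest mean of 3 atrial genes (Sln, Myl7 and Myl4) in their groups, 8.86 and 8.29, against at most 7.20 and 5.75 on the others. In MCAO 24 h replicate 1 had the highest atrial mean, 9.75, with Cxcl13 at 4.71. The 3 atrial genes were chosen after the values were seen, and their part in the result was not tested. Cxcr5 differed by -0.16 at 24 h (SE 0.08, adjusted p = 0.134) and by 0.07 at 72 h. Of 4 B cell markers 1 rose at 24 h, Ms4a1, and 0 fell, where 11.1 percent of all genes rose and 10.8 percent fell. At that time 2 of the 4 were above 0 and 2 below, and the median log2 change was -0.02. A mean above the odorant receptor level was found for 0 of the 4.

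Cxcl14, a chemokine of epithelium and stroma named here after its values were seen, differed by -0.30 at 24 h (SE 0.18, adjusted p = 0.257) and by -0.12 at 72 h (SE 0.18). Its MCAO 24 h values ran from 5.94 to 7.54, beyond the sham range of 6.57 to 7.23 on either side. Replicate 3 held the highest, and without it the change was -0.49 (SE 0.15, adjusted p = 0.0211). Cxcl15, a lung chemokine, differed by 0.10 (SE 0.05) and 0.04 (SE 0.05).

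Among CC ligands, Ccl4 (Entrez Gene 20303), an attractant of monocytes and T cells, rose at 24 h. Its sham values ran from 3.93 to 4.38 with a median of 4.22, and its MCAO values from 4.37 to 4.84 with a median of 4.54. The groups overlapped by a single sham array, and all 6 MCAO arrays were above the sham mean. The rise was 1.28-fold (log2 change 0.36, SE 0.08, adjusted p = 0.00418), and it held in all 24 fits without an array and in 10 of 10 other settings.

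By 72 h Ccl4 was level with sham: the medians were 4.22 in sham and 4.27 in MCAO hearts, with a log2 change of 0.01 (SE 0.08, interval -0.16 to 0.19). MCAO hearts fell by 0.33 from 24 h to 72 h (SE 0.08, adjusted p = 0.0168) with no overlap, a call lost with array weights and in the fit of the MCAO arrays alone (adjusted p up to 0.0738). The difference between the effects was -0.35 (SE 0.12, unadjusted p = 0.00761), which missed the threshold at an adjusted p of 0.124. Ccl3, a relative that acts through Ccr1, differed by -0.05 (SE 0.10) and 0.12 (SE 0.10).

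Ccl17 (Entrez Gene 20295), a ligand of Ccr4 that attracts T helper cells, was low on all arrays. Sham 24 h arrays ran from 3.29 to 3.45 with a median of 3.36, and MCAO 24 h arrays from 3.43 to 3.67 with a median of 3.61. It rose 1.15-fold (log2 change 0.21, SE 0.05, adjusted p = 0.00582), and lost its call in the fit of the 24 h arrays alone (adjusted p = 0.0554). At 72 h the difference was 0.13 (SE 0.05, adjusted p = 0.270), with all 6 MCAO arrays above the sham mean. Ccl22, the other Ccr4 ligand, differed by -0.15 at 24 h (SE 0.07, adjusted p = 0.134), and by -0.23 without MCAO 24 h replicates 5 and 6 (adjusted p = 0.0272). Ccr4 differed by 0.08 (SE 0.05).

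Ccl5 (Entrez Gene 20304), a product of T cells and platelets that acts through Ccr1 and Ccr3, fell at 24 h. It ran from 4.12 to 4.39 with a median of 4.16 in sham hearts and from 3.72 to 4.13 with a median of 3.97 after MCAO. All 6 MCAO arrays were below the sham mean and the ranges overlapped slightly. The decrease was 1.19-fold (log2 change -0.25, SE 0.07, adjusted p = 0.00963), lost in the fit of the 24 h arrays alone (adjusted p = 0.0777). At 72 h the difference was 0.04 (SE 0.07), and MCAO hearts rose by 0.34 from 24 h to 72 h (SE 0.07, adjusted p = 0.00354) with no overlap.

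Ccl28 (Entrez Gene 56838), a mucosal ligand of Ccr10 and Ccr3, fell by 0.19 at 24 h (SE 0.07, adjusted p = 0.0474) from a median of 4.03 to 3.87. Its ranges, 3.90 to 4.24 in sham and 3.67 to 4.04 in MCAO hearts, overlapped. The call was lost in 17 of 24 fits without an array (adjusted p up to 0.126) and without replicates 5 and 6 (log2 change -0.13, adjusted p = 0.174). Ccr10 differed by 0.03 (SE 0.10) and Ccr3 by -0.08 (SE 0.06).

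The Ccr2 ligands Ccl2, Ccl7 and Ccl12, which recruit monocytes, were lower in MCAO hearts by amounts that did not pass. Ccl2, named after its values were seen, ran from 4.49 to 5.10 in sham 24 h hearts with a median of 4.70. In MCAO 24 h hearts it ran from 3.92 to 5.09 with a median of 4.20, and replicates 5 and 6 were the 2 arrays within the sham range. The log2 change was -0.35 over all arrays (SE 0.17, adjusted p = 0.153) and -0.67 without those replicates (SE 0.12, adjusted p = 0.000665). At 72 h it was -0.11 (SE 0.17).

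Ccl7 split in a like manner at 24 h, with sham values of 4.30 to 4.54 and MCAO values of 3.90 to 4.59. Its log2 change was -0.23 (SE 0.11, adjusted p = 0.127), and -0.37 without replicates 5 and 6 (SE 0.10, adjusted p = 0.00829). At 72 h it was -0.32 (SE 0.11, adjusted p = 0.133), with medians of 4.35 in sham and 3.97 in MCAO hearts and all 6 MCAO arrays below the sham mean. Ccl7 at 72 h was -0.27 (adjusted p = 0.311) without sham 72 h replicate 2.

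Ccl12 did not overlap between the groups at 72 h: sham hearts ran from 3.58 to 4.58 with a median of 3.67 and MCAO hearts from 3.32 to 3.53 with a median of 3.39. The log2 change was -0.40 (SE 0.13, adjusted p = 0.116), and -0.24 without sham 72 h replicate 2 (SE 0.08, adjusted p = 0.168). In all, 4 of the 52 genes had no overlap at 72 h, Ccl12, Cxcl12 and Cx3cr1 lower and Cxcl17 higher, where 3.54 percent of all genes had none. Ccl8, named after its values were seen, differed by 0.20 at 24 h (SE 0.14, adjusted p = 0.304) and by -0.29 at 72 h (SE 0.14, adjusted p = 0.443). Without sham 72 h replicate 2, which was at 4.42, Ccl8 differed by -0.15 at 72 h. The receptor gene Ccr2 differed by -0.07 (SE 0.14) and -0.29 (SE 0.14, adjusted p = 0.419), and by -0.15 at 72 h without that array.

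The rodent Ccr1 ligands Ccl6 and Ccl9, were set apart by single arrays. Ccl9 ran from 6.17 to 7.61 in sham 24 h hearts and from 5.96 to 8.19 in MCAO 24 h hearts, with medians of 6.94 and 6.88. Ccl6 ran from 4.59 to 5.35 and from 4.70 to 6.63, with medians of 5.02 and 5.21. MCAO 24 h replicate 3 was the highest array for both, whereas replicate 6 was the lowest of its group for Ccl9 and at 6.26 for Ccl6. The log2 changes were -0.06 (SE 0.28, interval -0.65 to 0.53) for Ccl9 and 0.46 (SE 0.25, interval -0.05 to 0.96) for Ccl6, and neither passed. Without replicate 3 they were -0.32 and 0.22, and without replicates 5 and 6 they were 0.31 and 0.27, with adjusted p-values of 0.369 or more. Ccr1 differed by 0.14 at 24 h (SE 0.07, adjusted p = 0.151).

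Of the other CC ligands, Ccl20, which acts through Ccr6, differed by -0.12 at 24 h (SE 0.09, adjusted p = 0.370) and Ccr6 by -0.09 (SE 0.05). Ccl11, which attracts eosinophils through Ccr3 and was named after its values were seen, differed by 0.04 and -0.13 (SE 0.13 each). Ccl19, a ligand of Ccr7 named after its values were seen, differed by -0.03 and 0.28 (SE 0.17 each). The remaining 8 genes (Ccl1, Ccl24, Ccl25, Ccl26, Ccr1l1, Ccr7, Ccr8 and Ccr9) differed by -0.13 to 0.11 at 24 h and by -0.12 to 0.07 at 72 h, and 0 of them passed at either time.

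**Figure D4:**
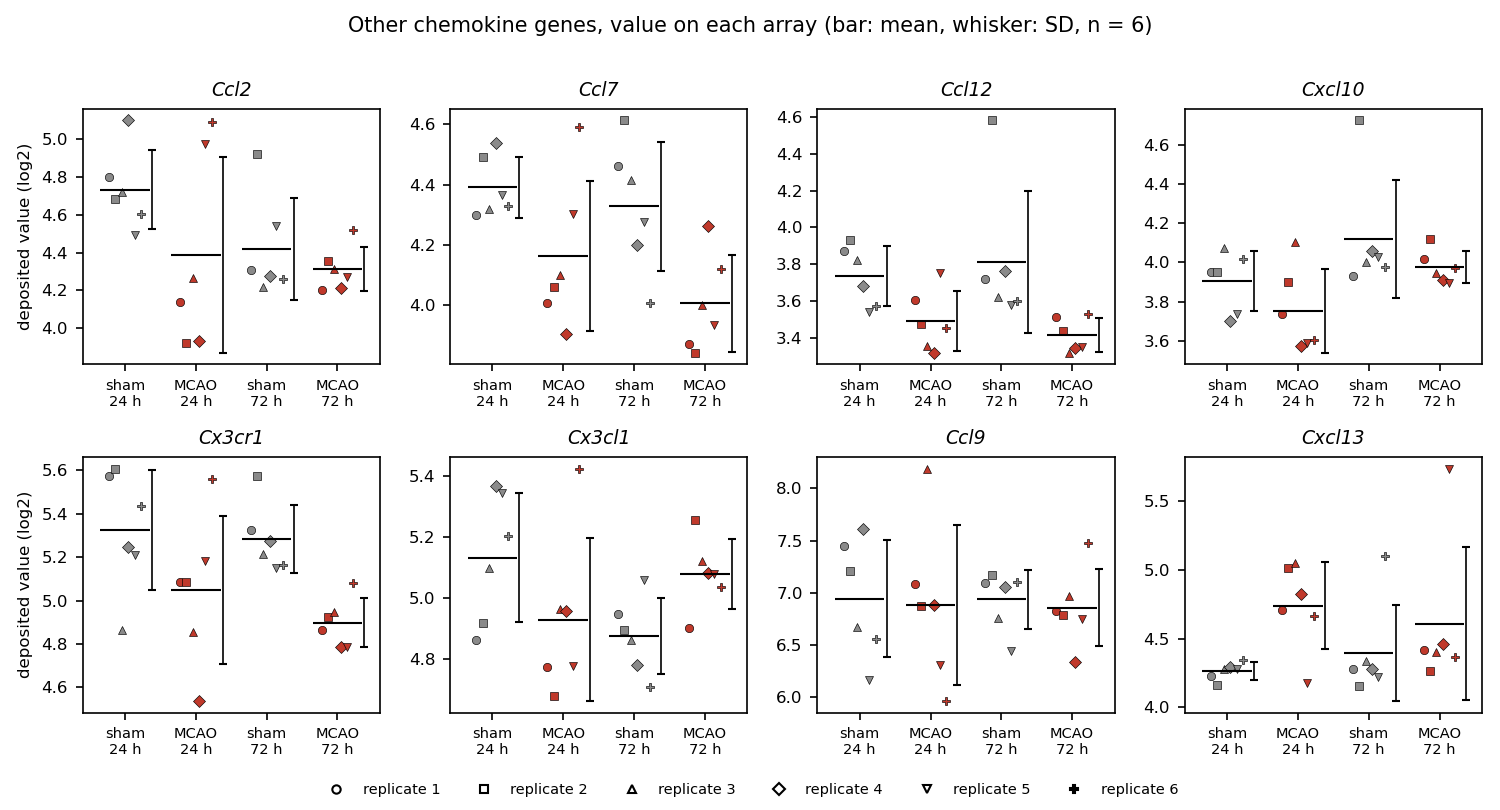
Deposited log2 value on each array for 8 further genes, in sham (grey) and MCAO (red) hearts, with the mean (bar) and SD (whisker) of 6 arrays and a marker shape per replicate number. Replicates 5 and 6 are the only MCAO 24 h arrays within the sham range for Ccl2, and sham 72 h replicate 2 is the highest array for Ccl12, at 4.58, and for Cxcl10, at 4.73.

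Fractalkine and its receptor were considered together. Cx3cr1, the receptor that marks resident macrophages and patrolling monocytes, ran from 4.87 to 5.61 in sham 24 h hearts with a median of 5.34, and from 4.54 to 5.56 after MCAO with a median of 5.08. At 72 h it ran from 5.15 to 5.57 with a median of 5.24 in sham hearts and from 4.79 to 5.08 with a median of 4.89 after MCAO. The groups were apart at 72 h and overlapped at 24 h, where MCAO replicate 6 was at 5.56. The log2 changes were -0.27 (SE 0.13, adjusted p = 0.141) and -0.38 (SE 0.13, adjusted p = 0.157). Without MCAO 24 h replicates 5 and 6 they were -0.43 (adjusted p = 0.0162) and -0.38 (adjusted p = 0.0550), and in the fit of the 72 h arrays alone the later change passed (adjusted p = 0.00872).

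Markers of the cells that carry Cx3cr1 were read beside it. The mean of 12 macrophage markers had group medians of 7.12 and 7.05 (log2) in sham and MCAO hearts at 24 h and of 7.17 and 6.86 at 72 h. At 72 h 2 of the 12 passed, both lower, where 2.35 percent of all genes passed. They were the resident macrophage genes Folr2 (log2 change -1.21, SE 0.22, adjusted p = 0.00261) and Cbr2 (-0.84, SE 0.22, adjusted p = 0.0355). Of the 12, 10 were below 0 at 72 h and 2 above, up to 0.30. At 24 h Folr2 fell and Cd163 rose, by 0.66 (SE 0.14), where 10.8 percent of all genes fell and 11.1 percent rose. At that time 9 of the 12 were below 0 and 3 above. Their part in the result for Cx3cr1 was not tested.

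Cx3cl1, the membrane-bound ligand of endothelium, had the opposite sign at the later time. Its medians were 5.15 in sham and 4.87 in MCAO hearts at 24 h and 4.88 and 5.08 at 72 h. The log2 changes were -0.20 (SE 0.11, adjusted p = 0.179) and 0.20 (SE 0.11, adjusted p = 0.532), and their difference of 0.41 (SE 0.15) did not pass (adjusted p = 0.153). Without MCAO 24 h replicates 5 and 6 the 24 h change was -0.29 (adjusted p = 0.0333), and both it and the difference passed. All 6 sham 72 h arrays were below the sham 24 h mean for Cx3cl1. Xcl1 differed by -0.02 and 0.07 (SE 0.06 each). Its receptor gene Xcr1, which marks cross-presenting dendritic cells, differed by -0.17 (SE 0.07, adjusted p = 0.106) and -0.13 (SE 0.07, adjusted p = 0.607). The dendritic cell list had 0 of 5 members past the threshold at either time. Over all genes 21.8 percent passed at 24 h and 2.35 percent at 72 h. Only 1 of the 5 had a mean above the odorant receptor level.

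**Figure D5:**
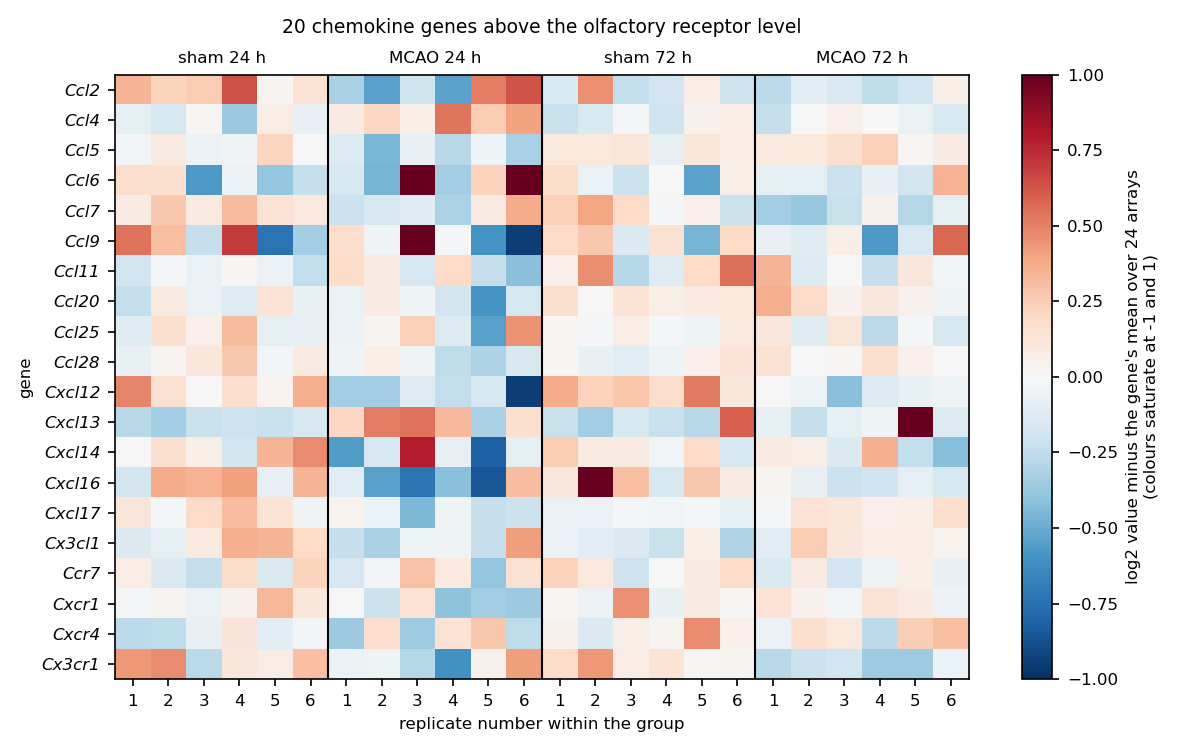
Log2 value minus the gene's own mean over 24 arrays for the 20 genes above the odorant receptor level, by array, with colours that saturate at -1 and 1. Cxcl12 is below its mean on the MCAO 24 h arrays, and single arrays stand out for Ccl6, Ccl9, Cxcl13 and Cxcl16.

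Between MCAO hearts at 72 h and 24 h, 5 of the 52 genes passed (10.4 percent of all genes did). Ccl5, Cxcl17 and Ccl20 rose, where 5.04 percent of all genes were higher, and Ccl4 and Ccr1 fell, where 5.36 percent were lower. The arrays of both times did not overlap for Ccl4 and Ccl5, as for 3.61 percent of all genes. The rises were 0.34, 0.25 and 0.28 on the log2 scale, and the decreases 0.33 and 0.23. This comparison shares the MCAO arrays with those above. Ccl20 (adjusted p = 0.0451) lost its call in 16 of 24 fits without an array (adjusted p up to 0.108), Ccr1 (adjusted p = 0.0411) in 8 (up to 0.0974) and Cxcl17 (adjusted p = 0.0245) in 4 (up to 0.0520). Under other settings Ccl20 lost it in 5 of 10 (adjusted p up to 0.165), Ccr1 in 4 of 9 (up to 0.156) and Cxcl17 in 3 of 10 (up to 0.106), each with array weights and in the fit of the MCAO arrays alone among them. Between sham hearts at 72 h and 24 h, 0 of the 52 genes passed in limma, where 0.0208 percent of all genes did, and 3 had an unadjusted p under 0.05 (Ccl8, Cxcl17 and Cx3cl1), against 3.69 percent of all genes.

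Of 11 related genes of the chemokine system outside the naming rule, 3 rose at 24 h (27.3%, against 21.8 percent of all genes called) and 0 fell. The median log2 change of the 11 was 0.18 at 24 h and -0.06 at 72 h, against 0.01 and 0.00 over all genes. Ccrl2, an atypical receptor that binds chemerin and presents it to Cmklr1 without signalling, ran from 6.00 to 6.73 in sham 24 h hearts and from 7.52 to 8.17 after MCAO. At 72 h it ran from 5.93 to 6.59 and from 6.64 to 7.15. The groups were apart at both times.

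Ccrl2 rose 2.76-fold at 24 h (log2 change 1.47, SE 0.13, adjusted p = 1.86e-07) and less at 72 h (log2 change 0.59, SE 0.13, adjusted p = 0.0101). The effect was smaller at 72 h by 0.88 on the log2 scale (difference -0.88, SE 0.18, adjusted p = 0.0156). The chemerin receptor gene Cmklr1 rose by 0.43 at 24 h (SE 0.12, adjusted p = 0.0161) and Ackr1, the Duffy-type scavenger of venules, by 0.23 (SE 0.08, adjusted p = 0.0459). At 72 h Ccrl2 was the only one of the 11 that passed.

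Of 20 measured genes that induce chemokines, cytokines and members of the NF-kB pathway, 4 rose and 2 fell at 24 h (30.0%, against 21.8 percent of all genes), and the median log2 change was 0.03. The lipopolysaccharide receptor gene Tlr4 rose by 0.95 (SE 0.17, adjusted p = 0.000551) and the tumour necrosis factor receptor gene Tnfrsf1a by 0.84 (SE 0.18, adjusted p = 0.00237), both with no overlap. Il10 rose by 0.23 (SE 0.05), Ifng fell by 0.34 (SE 0.07, adjusted p = 0.00235) and Tnf fell by 0.20 (SE 0.07, adjusted p = 0.0391). Il1b differed by -0.13 and Il6 by -0.06, and these 2 and Tnf were named after their values were seen. Group means ran from 3.25 to 3.49 for Il10, from 3.64 to 3.97 for Ifng and from 3.61 to 3.82 for Tnf. They lay near or below the odorant receptor level of 3.96. Of the odorant and vomeronasal receptor genes themselves 11.6 percent passed at 24 h. At 72 h 1 of the 20 rose and 0 fell, where 2.35 percent of all genes passed.

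Of 19 genes of receptor signalling 3 rose and 2 fell at 24 h (26.3%, near the 21.8 percent of all genes), and the median log2 change was -0.02. Rac2, a leukocyte GTPase needed for directed movement, fell by 0.96 (SE 0.17, adjusted p = 0.000513) with no overlap, and the actin regulator Coro1a by 0.39 (SE 0.12, adjusted p = 0.0236). Grk6, a kinase that desensitises chemokine receptors, rose by 0.43 (SE 0.11, adjusted p = 0.00692). At 72 h 0 of the 19 passed in limma, and 2 had an unadjusted p under 0.05, against 10.9 percent of all genes.

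Of 13 genes that present or cleave chemokines 2 rose and 2 fell at 24 h (30.8%, against 21.8 percent of all genes), and the median log2 change was -0.17. Sdc4, a heparan sulfate proteoglycan, rose by 0.72 at 24 h (SE 0.18, adjusted p = 0.00689) and by 0.69 at 72 h (SE 0.18, adjusted p = 0.0411). Hs6st1, a heparan sulfate sulfotransferase, rose by 0.61 at 24 h (SE 0.17, adjusted p = 0.0133). Dpp4, the peptidase that inactivates Cxcl12, fell by 0.33 (SE 0.08, adjusted p = 0.00753) and the glypican gene Gpc1 by 0.37 (SE 0.10, adjusted p = 0.0113). Group means of Dpp4 ran from 3.68 to 4.01, near or below the odorant receptor level of 3.96. Of 14 leukocyte adhesion genes the junctional genes Jam2 and Jam3 fell at 24 h, by 0.37 and 0.34 (14.3% of the list, under the 21.8 percent of all genes), and 0 passed at 72 h in limma, where 2 had an unadjusted p under 0.05.

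Of 6 monocyte markers 2 rose at 24 h, Ly6c2 by 0.99 (SE 0.18, adjusted p = 0.000468) and Cd14 by 0.49 (SE 0.17, adjusted p = 0.0360), and 0 passed at 72 h. Over all genes 11.1 percent rose at 24 h. At that time 1 of the 6 was below 0, at -0.37, and the median log2 change was 0.18. At 72 h 4 of the 6 were below 0, down to -0.55. The mean of these 6 markers per array ran from 4.22 to 4.62 in sham 24 h and from 4.49 to 4.92 in MCAO 24 h. Of 4 mast cell markers Kit fell at 24 h by 0.36 (SE 0.09) while the other 3 were above 0, and of 3 eosinophil markers Siglecf fell by 0.20 (SE 0.07) while the other 2 were above 0. Over all genes 10.8 percent fell at 24 h. Group means of Siglecf ran from 3.56 to 3.76, below the odorant receptor level of 3.96. Of 3 platelet markers Gp1bb rose by 0.36 (SE 0.11), the other 2 were below 0, down to -0.27, and the median was -0.16. The parts of these cells in the results for chemokine genes were not tested.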

How the data were processed

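Cardiac RNA from 24 samples was measured on Affymetrix arrays. Groups came from the sample titles. The free text of the 72 h samples names 24 h, and the titles were followed. The members, gene lists, alternatives and tests were chosen with earlier results of these data known.

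The deposited values are log2 intensities summarised per gene by the authors. The base of the logarithm was judged from the values, which ran from 2.78 to 13.5 with a median of 4.16. The sorted values were identical in 23 of the 24 columns, as after quantile normalization. How probes were summarised, and on which build, is not given in the sources used here. HOMER appears in the submitters' processing notes with no role. Of 24973 identifiers 24015 had 1 symbol in the platform annotation and 958 were unnamed. For 4 symbols with several identifiers the highest mean was kept, leaving 24011 genes. The number of arrays limits the precision.

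Genes were tested with limma 3.58.1 in R 4.3.3 (lmFit and eBayes on 24 arrays in 4 groups, 20 residual degrees of freedom, Benjamini-Hochberg adjustment at 0.05 over all genes). MCAO was set against sham at 24 h and at 72 h, the 2 effects were compared, and 72 h was set against 24 h within each operation. The fit was tested on simulated data. Named genes were those past a threshold, the smallest p of each class, and ligands or receptors of genes past it, and other genes are marked in the text as named after their values were seen. Alternatives were array weights, a trended robust prior, median centring, a second quantile normalization, leaving out dim genes, averaging identifiers, only the groups compared, a covariate (the first component of odorant and vomeronasal receptor genes), the replicate number as a block, each array left out, and MCAO 24 h replicates 5 and 6 left out. The labels do not state that replicate numbers pair the samples. Over 12 pairs of samples with the same number, the correlation of deviations ran from -0.07 to 0.14. In 2 of the 12 the MCAO sample correlated best with the sham sample of its own number. Such correlations cannot exclude a pairing. Motifs were searched with Python 3.11.15 in RefSeq windows. The odorant receptor level stands in for a detection limit. No columns were left unused.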

Additional observations from a re-analysis of the deposited data

Results flagged for a closer look

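Single arrays stood out from the other 5 of their group for 13 of 156 groups of values examined, by the gap to the nearest array over the whole range (Dixon's test at the 95% level). Chance gives such a gap in about 1 in 20 groups. Sham 72 h replicate 2 accounted for 5 of them, being the highest for Ccl3 (4.18, others at most 3.74), Ccl12 (4.58, others at most 3.76), Cxcl10 (4.73, others at most 4.06), Cxcl16 (7.67, others at most 6.71) and Cxcr6 (3.63, others at most 3.53).

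The other sham 72 h arrays set apart were replicate 4, lowest for Ccl5 (4.10), replicate 6, highest for Cxcl13 (5.10), replicate 3, highest for Cxcr1 (4.48), and replicate 5, highest for Cxcr4 (5.72). In MCAO 72 h replicate 3 was lowest for Cxcl12 (7.98), replicate 5 was highest for Cxcl13 (5.73) and replicate 6 was highest for Ccl6 (5.52). In MCAO 24 h replicate 6 was lowest for Cxcl12 (7.45).

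The MCAO effect on Cxcl17 differed between the times by 0.41 on the log2 scale, 72 h minus 24 h (limma adjusted p = 0.0328).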

How the results depend on the processing

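Of the 52 genes, 9 passed at 24 h, 0 at 72 h, 1 for the difference between times, 5 between MCAO hearts at 72 h and 24 h and 0 between sham hearts. When only the groups compared were fitted these counts were 3, 2, 1, 1 and 0. With array weights they were 7, 5, 0, 1 and 0, and with the filter on dim genes 6, 1, 0, 3 and 0. With the receptor gene covariate 2 passed at 72 h, and without MCAO 24 h replicates 5 and 6 2 passed at 72 h (Ccl7 and Cxcl12) and 2 for the difference (Cx3cl1 and Cxcl17). With the replicate block, for which the labels state no pairing, the counts were 7, 0, 0, 4 and 0. Without each array in turn they ran from 6 to 12 at 24 h, 0 to 1 at 72 h, 0 to 2 for the difference, 2 to 8 between MCAO hearts and 0 to 0 between sham hearts. Between MCAO hearts the count was 8 without MCAO 24 h replicate 1, 3 without MCAO 24 h replicate 4 or MCAO 72 h replicate 4 or 5, and 2 without MCAO 72 h replicate 2 or 3. Without MCAO 24 h replicate 6, 1 passed at 72 h (Cxcl12) and 2 for the difference. The difference lost its call without MCAO 72 h replicate 2, 3 or 6, sham 24 h replicate 3, 4 or 5, or sham 72 h replicate 1, 2, 4 or 6. The cause of these shifts was not tested. The mean of identifiers, median centring and the second quantile normalization gave the main counts, and the trended prior gave 8, 0, 1, 6 and 0. Values near the odorant receptor level limit what a difference of these sizes can show.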
